A study of Homo sapiens with 8 samples.

Results

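The 7SL RNA rows of a small RNA count table were examined in HEK293 cells, a human embryonic kidney cell line. They are the rows whose name begins with RN7SL or Metazoa_SRP, 131 of 2962 rows in all: the genes RN7SL1, RN7SL2 and RN7SL3, 120 numbered copies with names ending in P, and 8 rows named Metazoa_SRP. Rows with equal counts in every library were taken once, which left 126. The cells of 4 libraries had been transfected with a synthetic copy (mimic) of a tDR, a small RNA derived from a tRNA, here from the 3′ side of tRNA-Asp-GTC. The cells of the other 4 had received a scramble control mimic. All cells received 50 nM of mimic with Lipofectamine RNAiMax and were collected 48 h later, and no untransfected cells were among the libraries. The OTTR-seq method used for the libraries lets a reverse transcriptase join both adapters while it copies the RNA.

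7SL RNA is the scaffold of the signal recognition particle, which binds ribosomes that are making secreted or membrane proteins and brings them to the endoplasmic reticulum. Its Alu domain, formed by both ends of the RNA, binds the SRP9 and SRP14 proteins and slows translation, while its S domain binds SRP54, the subunit that reads the signal peptide. RNA polymerase III transcribes the functional genes, and dispersed copies of 7SL, like the Alu repeats that descend from it, lie throughout the human genome.

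The near identity of the 3 genes limits how far short reads can be assigned to one of them. RN7SL1 is at chr14:49586580-49586878 on the plus strand (GRCh38, GENCODE release 29) and lies within an intron of RPS29 on the opposite strand. RN7SL2 is at chr14:49862550-49862849 and RN7SL3 at chr14:49853616-49853914, both on the minus strand and outside protein-coding genes.

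Over its length RN7SL2 was identical to RN7SL1 at 98.3% of aligned positions, and RN7SL3 at 97.7%. A fragment that covers none of the differing positions fits several of the genes, and the sources used here do not say how the authors' counting placed such reads. The counts carry no position within the RNA, so full-length 7SL RNA and its fragments cannot be told apart. Values of single 7SL rows are therefore uncertain wherever rows share sequence.

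Total counts were 6910186 to 8007025 in the tDR libraries and 4016295 to 10246336 in the scramble libraries. At these depths the limit that a count of 0 allows (3 counts) was 2.93e-05% to 7.47e-05% of a library, which covers counting error only. A row named scr2, which is no gene, had 7.37 to 34.7 CPM, the count scaled to a common library total, in tDR libraries and 3522 to 5647 CPM in scramble libraries, on the side its name gives. The 6 microRNAs listed for HEK293 all had a row and summed to 518 to 1103 CPM in tDR libraries and 958 to 1687 CPM in scramble libraries. Of 13 microRNAs of liver, blood, endothelium, nerve and muscle, 7 had a row, and they summed to 35.6 to 75.4 CPM in tDR libraries and 37.5 to 72.3 CPM in scramble libraries. The HEK293 list overlapped between the groups with a lower range in tDR libraries, and its part in the results was not tested. In bulk RNA, fewer cells of a kind and less RNA per cell cannot be told apart.

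The 3 source genes held most of the 7SL counts and none was called changed. RN7SL1, the most abundant, had 880, 1085, 1372 and 1203 TMM-scaled CPM in tDR libraries 1 to 4, against 1775, 1176, 1120 and 1059 CPM in scramble libraries 1 to 4. The groups overlapped, and scramble library 1 stood above the other 7. The mean was 1135 ± 207 CPM in tDR libraries and 1283 ± 332 CPM in scramble libraries (SD, n = 4 each), with a log2 fold change of -0.18 (SE 0.18) and an adjusted p of 0.643 in the quasi-likelihood test of edgeR, adjusted by Benjamini-Hochberg.

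RN7SL2 had 650, 735, 897 and 767 CPM in tDR libraries, against 1180, 832, 822 and 777 CPM in scramble libraries. Its groups overlapped as well, again with scramble library 1 highest, and the log2 fold change was -0.24 (SE 0.17, adjusted p = 0.424, edgeR). RN7SL3 had 139, 184, 203 and 170 CPM in tDR libraries, against 221, 140, 146 and 137 CPM in scramble libraries. It too overlapped between the groups, at a log2 fold change of 0.11 (SE 0.18, adjusted p = 0.812, edgeR). The sign of these 3 values was not stable: with TMM factors from microRNAs alone RN7SL1 was 0.16 and RN7SL2 was 0.096, with total counts RN7SL3 was -0.032, and without scramble library 1 RN7SL1 was 0.019.

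**Figure D1:**
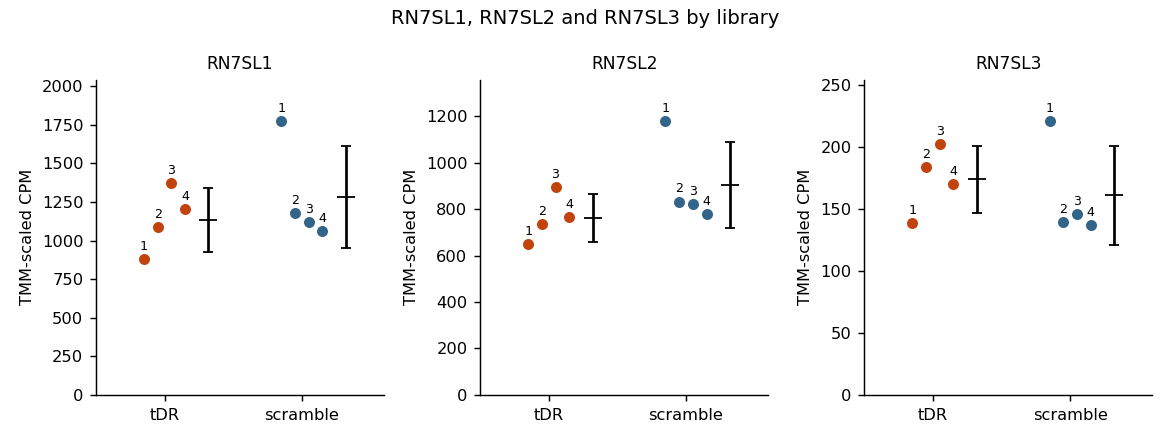
TMM-scaled CPM (linear axis from 0) of RN7SL1, RN7SL2 and RN7SL3 in tDR libraries (left in each panel) and scramble libraries (right); points are libraries with their replicate number, and bars are the mean ± SD of 4. In all 3 panels scramble library 1 is the highest point, at 1775, 1180 and 221 CPM, and the other libraries of both groups overlap.

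Per kilobase of annotated length, RN7SL1 averaged 4043 CPM over the 8 libraries and RN7SL2 2775 CPM. The copy RN7SL610P followed at 1130 CPM per kilobase, then RN7SL868P at 597, RN7SL3 at 560 and RN7SL499P at 466 CPM per kilobase. RN7SL868P and RN7SL3 changed places between the group means. Unscaled by length, RN7SL868P averaged 154 CPM and RN7SL3 174 CPM in tDR libraries. In scramble libraries RN7SL868P averaged 208 CPM and RN7SL3 161 CPM. tDR library 1 kept the scramble order, with 151 CPM for RN7SL868P and 139 CPM for RN7SL3, and neither row was called.

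The share of counts that fell on 7SL rows, with equal-count rows of the whole table taken once, was 0.456, 0.427, 0.503 and 0.503% in tDR libraries 1 to 4, against 0.716, 0.542, 0.573 and 0.569% in scramble libraries 1 to 4. Every tDR library lay below every scramble library. The mean was 0.472 ± 0.0372% in tDR libraries and 0.600 ± 0.0782% in scramble libraries (SD, n = 4 each), a difference of -0.128 percentage points. The widest exact binomial 95% interval of a share reached 0.00904 percentage points to either side. With every row summed the means were 0.331% in tDR libraries and 0.402% in scramble libraries, and with nearly equal rows taken once 0.832% and 0.991%, without overlap in either case. The share is a sum over the rows and was not tested, and it moves with every other row of the table. The totals leave out the 2 rows that name no gene, scr2 among them, but no row for the tDR mimic. Scaled to total counts, the median log2 fold change of all features was -0.13. Relative to the genes, the copies and Metazoa_SRP rows together had 0.761, 0.766, 0.599 and 0.650 counts per gene count in tDR libraries, against 0.581, 0.639, 0.658 and 0.719 in scramble libraries. These ratios overlapped.

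Among the numbered copies, 4 were called higher in tDR libraries: RN7SL732P, RN7SL563P, RN7SL49P and RN7SL242P. Of the 126 rows, 55 passed the filter on low counts, and 4 of them (7.27%) were called higher and 0 lower, at an adjusted p below 0.05. Over all 1761 features tested, 5.34% were called higher, 1.36% lower and 6.7% in either direction, so the share of 7SL rows called higher is near that of the table. At an unadjusted p below 0.05, 13 of the 55 rows were higher and 3 lower by edgeR, against 226 and 153 of all 1761 features. The DESeq2 Wald test called 5 of the rows higher and 2 lower after adjustment, against 133 and 61 of all features. The median log2 fold change was 0.31 over the 55 rows, with a range of -0.44 to 1.54, and 0.02 over all features tested. It was 0.066 (all features -0.025) among the 24 rows with a mean count of at least 50, and 0.62 (all features 0.36) with TMM factors from microRNAs alone. The filter on low counts bears on these values: 7 of the 55 rows, RN7SL49P and RN7SL242P among them, reached its cutoff of 1.28 CPM in all 4 tDR libraries but not in all 4 scramble libraries, and 0 rows did the reverse. The filter counts libraries of both groups together, and 6 further rows passed with fewer than 4 libraries at the cutoff in each group. The 7 rows passed with the help of their level in tDR libraries, so the medians and counts over tested rows describe those rows only. The 7 rows alone had a median of 1.35, and the 6 further rows one of 0.48. For the 42 rows that met the cutoff in each of the 8 libraries it was 0.11, with 25 rows above 0. The value of 0.31 over the 55 rows therefore depends in part on the filter.

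RN7SL732P had 20.04, 28.06, 16.42 and 17.87 CPM in tDR libraries, against 15.5, 10.1, 12.3 and 11.4 CPM in scramble libraries. Each tDR library exceeded each scramble library, narrowly for tDR library 3 and scramble library 1. It averaged 20.6 ± 5.19 CPM in tDR libraries and 12.3 ± 2.31 CPM in scramble libraries (SD, n = 4 each), with a log2 fold change of 0.74 (SE 0.21, adjusted p = 0.0376, edgeR). RN7SL563P had 3.27, 6.08, 4.31 and 3.63 CPM in tDR libraries, against 2.16, 2.28, 2.47 and 1.31 CPM in scramble libraries. The groups did not overlap, tDR library 2 was highest, and the log2 fold change was 1.10 (SE 0.33, adjusted p = 0.0474, edgeR).

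RN7SL49P had 3.82, 2.49, 2.78 and 2.65 CPM in tDR libraries, against 0.889, 1.52, 0.898 and 1.13 CPM in scramble libraries. It rested on few reads, 16 to 28 counts in tDR libraries and 4 to 16 in scramble libraries, without overlap in CPM. Its log2 fold change was 1.35 (SE 0.37, adjusted p = 0.0312, edgeR). RN7SL242P had 4.23, 2.49, 2.51 and 2.51 CPM in tDR libraries, against 1.02, 0.569, 0.449 and 1.83 CPM in scramble libraries. The groups again did not overlap, although scramble library 4 held 21 counts, above the 16 to 18 counts of tDR libraries 2 to 4 and below the 31 of tDR library 1. The log2 fold change was 1.49 (SE 0.43, adjusted p = 0.0411, edgeR).

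**Figure D2:**
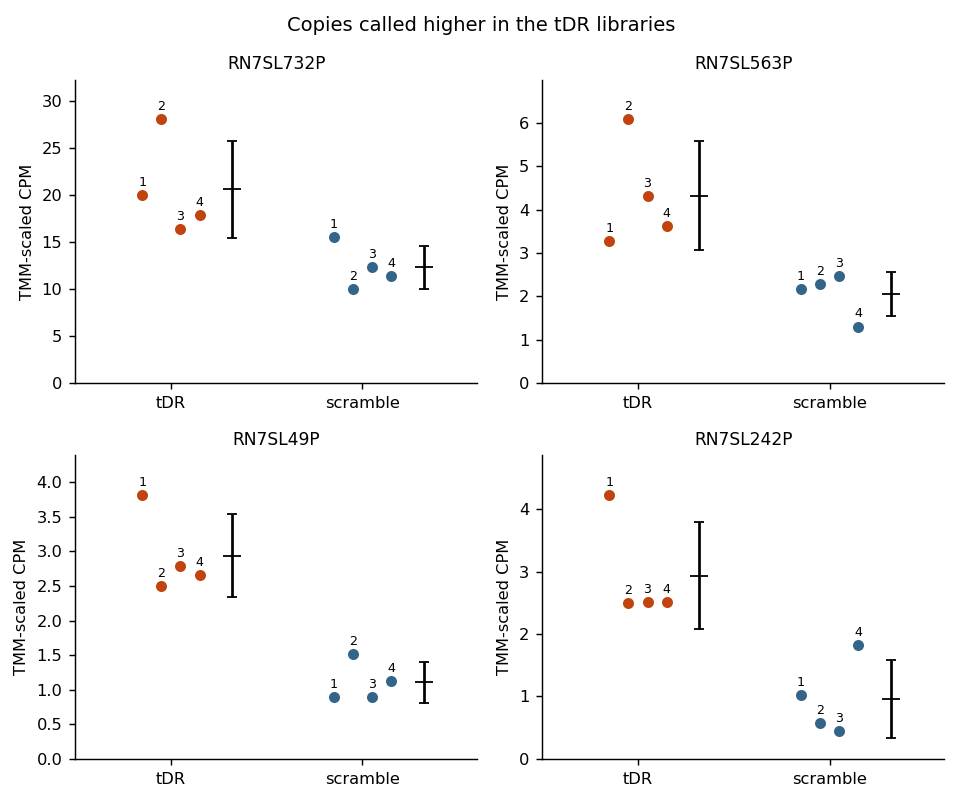
TMM-scaled CPM (linear axes from 0) of the 4 copies called higher, tDR libraries left and scramble libraries right in each panel; points are libraries with their replicate number, and bars are the mean ± SD of 4. No panel overlaps between groups, and the lowest tDR and highest scramble values of RN7SL732P are 16.4 and 15.5 CPM.

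Each call was lost in several fits with 1 library fewer, while the log2 fold changes stayed above 0: 0.57 to 0.87 for RN7SL732P, 0.88 to 1.20 for RN7SL563P, 1.20 to 1.53 for RN7SL49P and 1.25 to 2.03 for RN7SL242P. RN7SL732P kept its call without tDR library 1, tDR library 3 or scramble library 1, with adjusted p between 0.0167 and 0.131 over the 8 omissions (edgeR). RN7SL563P kept its call without tDR library 1 alone (0.0278 to 0.137), RN7SL49P without tDR library 2 alone (0.0444 to 0.0803) and RN7SL242P without scramble library 4 alone (0.0239 to 0.159). All other omissions ended them, as did scaling to total counts (adjusted p = 0.0768 to 0.1002, edgeR). RN7SL242P also missed the threshold with DESeq2 size factors (adjusted p = 0.0505, edgeR) and without the filter on low counts (adjusted p = 0.0502, edgeR).

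The called copies were compared with RN7SL1 by the longest stretch of exact identity. RN7SL732P is at chrX:39786524-39786823 on the minus strand, RN7SL49P at chr13:45002150-45002447 on the plus strand in an intron of GPALPP1, and RN7SL242P at chr1:70180144-70180440 on the minus strand in an intron of LRRC40. The build is GRCh38 (GENCODE release 29), and positions in RN7SL1 are counted from 1 at its 5′ end.

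The longest runs were 46 bases (197 to 242 of RN7SL1) in RN7SL732P, 45 bases (55 to 99) in RN7SL49P and 35 bases (152 to 186) in RN7SL242P. In RN7SL563P the run was 32 bases (197 to 228). The runs therefore lay in different parts of the molecule, and only those of RN7SL732P and RN7SL563P overlapped.

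Most of the abundant copies had log2 fold changes below 0, and none was called. RN7SL610P, at chr2:23996795-23997085 in an intron of UBXN2A on the opposite strand, had 248, 297, 309 and 302 CPM in tDR libraries, against 445, 355, 326 and 348 CPM in scramble libraries. The groups did not overlap, and the log2 fold change was -0.35 (SE 0.15, adjusted p = 0.192, edgeR). RN7SL868P, at chr5:149722070-149722372, had 151, 153, 156 and 156 CPM in tDR libraries, against 231, 197, 197 and 206 CPM in scramble libraries. The tDR libraries lay close together and below all scramble libraries, with a log2 fold change of -0.43 (SE 0.14, adjusted p = 0.0646, edgeR). RN7SL310P, at chr18:50206998-50207278, had 46.1, 43.5, 39.9 and 43.6 CPM in tDR libraries, against 62.1, 54.7, 52.8 and 63.9 CPM in scramble libraries. It did not overlap either, with a log2 fold change of -0.43 (SE 0.14, adjusted p = 0.0738, edgeR). With DESeq2's size factors or its Wald test, RN7SL868P and RN7SL310P were called lower. With TMM factors from microRNAs alone the log2 fold change was -0.0091 for RN7SL610P, -0.088 for RN7SL868P and -0.095 for RN7SL310P.

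In TMM-scaled CPM, 5 of the 55 rows lay higher without overlap in tDR libraries, against 7.78% of all features tested, and 3 lay lower, against 5.51%. The higher rows were the 4 called copies and RN7SL8P, which was named after its values were seen. It averaged 8.21 ± 2.23 CPM in tDR libraries and 4.97 ± 1.13 CPM in scramble libraries (SD, n = 4 each; log2 fold change 0.74, SE 0.26, adjusted p = 0.0976, edgeR).

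RN7SL499P had a log2 fold change of -0.23 (SE 0.19, adjusted p = 0.526, edgeR), RN7SL364P one of -0.25 (SE 0.18, adjusted p = 0.457) and RN7SL36P one of -0.20 (SE 0.17, adjusted p = 0.541). Each was highest in scramble library 1, as the 3 genes were. RN7SL364P and RN7SL36P, on chromosomes 19 and 3, had nearly equal counts, never more than 10% or 3 counts apart, and may draw on the same reads. RN7SL5P had 78.8, 113, 82.5 and 83.4 CPM in tDR libraries, against 83.4, 52.5, 66.7 and 59.1 CPM in scramble libraries. The groups overlapped through scramble library 1, and the log2 fold change was 0.45 (SE 0.17, adjusted p = 0.118, edgeR), past the threshold when scramble library 1 was left out.

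The 12 most abundant tested rows had a median log2 fold change of -0.21, with 8 below 0 and 0 called, while the other 43 had a median of 0.45, with 33 above 0 and 4 called. With TMM factors from microRNAs alone, which raise the median of all features to 0.36, the medians were 0.14 for the abundant rows and 0.75 for the others. Over the 50 tested numbered copies Spearman's rho between mean CPM and log2 fold change was -0.41. The copies share libraries and may share reads, and the fold change of a row enters its mean, so this is a description of these libraries. The 7 rows that reached the filter cutoff in all 4 tDR libraries but not in all 4 scramble libraries are all among the 43.

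**Figure D3:**
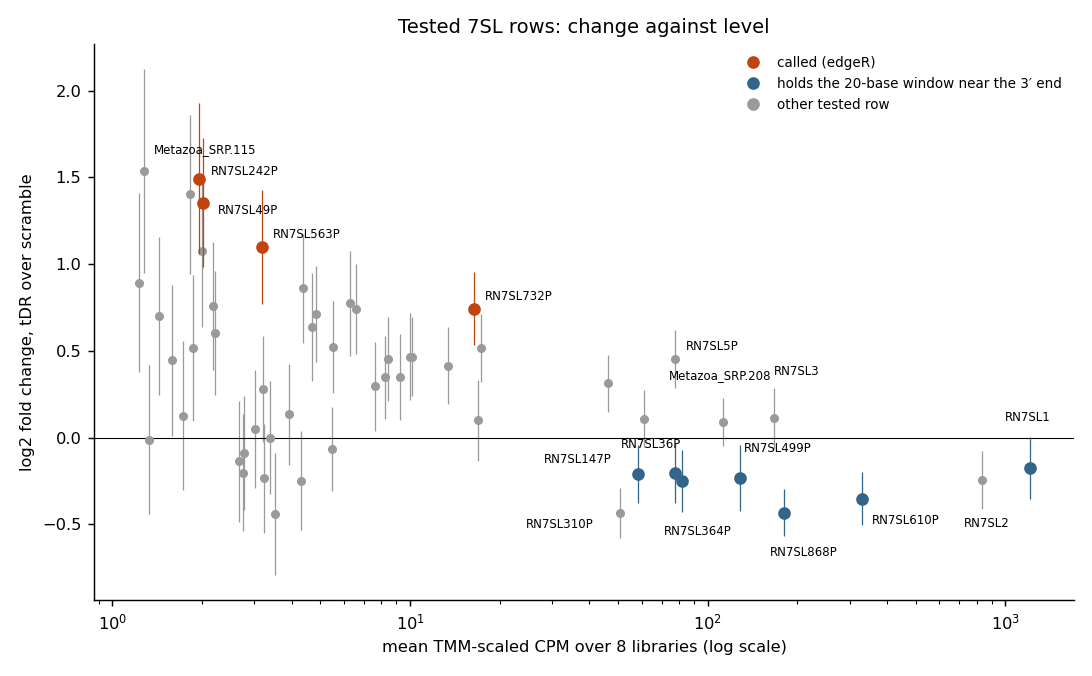
Log2 fold change of tDR over scramble libraries (vertical axis, error bars are the SE) against the mean TMM-scaled CPM over 8 libraries (log axis) for the 55 tested rows. The 4 called copies (orange) lie at 1.95 to 16.5 CPM, and the rows that hold the 3′ window (blue) lie at 58.2 CPM or more, all of them below 0 at this scaling, while 4 of the 6 copies and RN7SL1 were above 0 with TMM factors from microRNAs alone.

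Several of the abundant copies shared with RN7SL1 a stretch near the 3′ end, seen in a scan of every 20-base window of RN7SL1 over the annotated copies. The window at bases 271 to 290 was chosen after its values were seen, for a summed CPM of its copies at or near the highest. The high level of its holders given below therefore comes from that choice. The window is held exactly by 8 copies in the table, and neither RN7SL2 nor RN7SL3 holds it. Among abundant copies, RN7SL5P, RN7SL674P and RN7SL310P do not hold it, at 77.5, 61.1 and 50.8 CPM.

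Of these copies 6 were tested: RN7SL610P, RN7SL868P, RN7SL499P, RN7SL364P, RN7SL36P and RN7SL147P. They had a median of 105 CPM (58.2 to 329), and their log2 fold changes ran from -0.43 to -0.20 with a median of -0.24. The median was -0.062 without scramble library 1, -0.12 without tDR library 1 and -0.38 with total counts. They were below 0 in every alternative and left-out library run, except with TMM factors from microRNAs alone, where 4 of the 6 were above 0. RN7SL36P was not in the run with nearly equal rows taken once. All runs draw on the same libraries and the copies may share reads, so these are not separate cases. The 44 tested copies without the window had a median of 4.12 CPM (1.22 to 77.5) and a median log2 fold change of 0.45, with 10 below 0. They include the numbered copies among the 7 rows that passed the filter with the help of their tDR level. Log2 fold change fell with mean CPM over the 50 tested copies (Spearman's rho -0.41), so choosing a window by level also bears on this contrast. Of the abundant copies without the window, RN7SL5P had 0.45, RN7SL4P 0.31, RN7SL674P 0.11 and RN7SL310P -0.43. The other two holders, RN7SL160P and RN7SL587P, were not tested and had 25 counts each over all libraries, so holding the window did not by itself go with a high count. Summed over copies, the level was 857 CPM for this window, against 379 CPM for bases 161 to 180 and 207 CPM for bases 209 to 228. Bases 209 to 228 were also chosen after values were seen, from many windows. All 12 tested copies that hold them had log2 fold changes above 0, with a median of 0.47. Of all 50 tested copies, 34 were above 0. All 14 tested holders of bases 75 to 94 were above 0 too, with a median of 0.70. These holders include RN7SL49P, RN7SL43P, RN7SL300P and RN7SL97P, which passed the filter with the help of their level in tDR libraries. Their sign and the median of 0.70 therefore depend in part on the filter. For bases 211 to 230, 12 of 13 tested holders were above 0.

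RN7SL610P was the most abundant copy with that stretch and RN7SL5P the most abundant without it. RN7SL610P is on the minus strand, and RN7SL5P is at chr9:9442060-9442380 on the plus strand, in an intron of PTPRD on the opposite strand. RN7SL610P shares bases 266 to 293 of RN7SL1 (28 bases) and RN7SL5P bases 27 to 235 (209 bases). In RN7SL868P the run was 22 bases (271 to 292), and in RN7SL499P 39 bases (254 to 292). Over the 50 tested copies, whose identity to RN7SL1 had a median of 82.8% (71.5 to 88.3%), Spearman's rho with mean CPM was 0.43 for the length of the longest run and -0.074 for identity. With log2 fold change it was 0.19 for the run and 0.13 for identity.

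**Figure D4:**
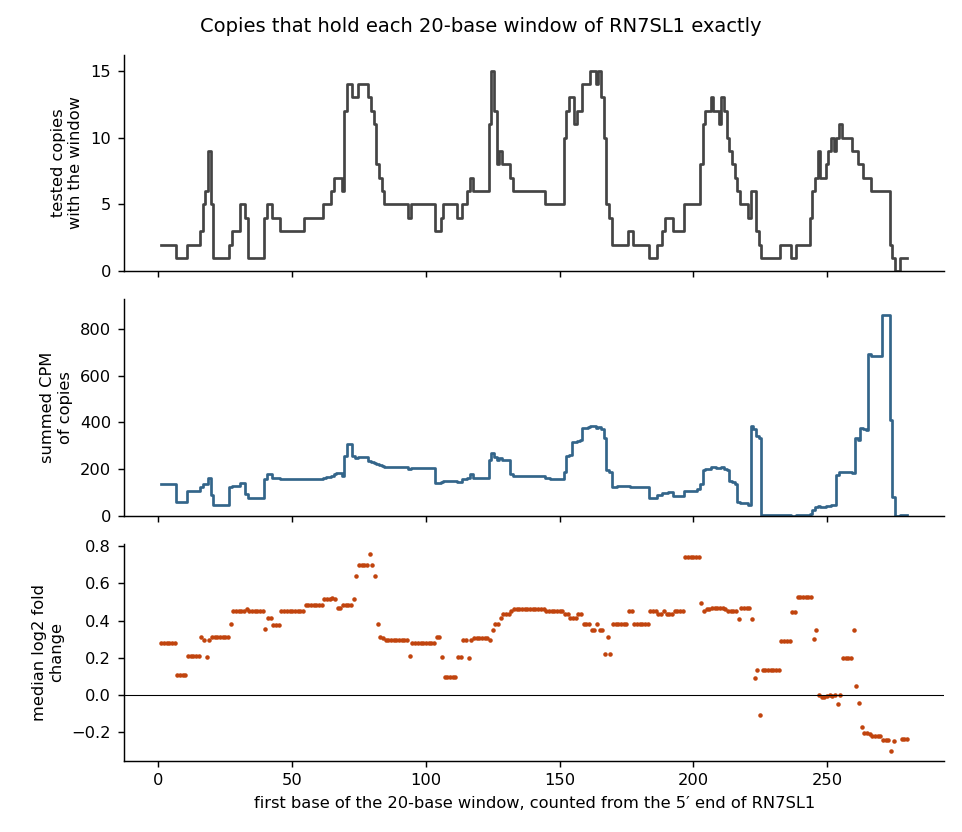
For each 20-base window of RN7SL1 (horizontal axis, first base from the 5′ end), the number of tested copies that hold it exactly (top), the summed TMM-scaled CPM of copies in the table (middle) and the median log2 fold change of the tested holders (bottom). The summed level peaks at 857 CPM near the 3′ end, where the median change is -0.24 (0.10 with TMM factors from microRNAs alone). The median is 0.47 at bases 209 to 228 and 0.70 at bases 75 to 94. These windows were chosen after values were seen. Several holders of bases 75 to 94 passed the filter on low counts with the help of their level in tDR libraries.

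Counts relative to RN7SL1 within each library do not depend on a scaling factor. RN7SL3 had 158, 170, 148 and 142 counts per 1000 RN7SL1 counts in tDR libraries, against 125, 119, 130 and 130 in scramble libraries. The groups did not overlap, and the mean ratio was 1.23 times that of scramble libraries. RN7SL2 had 738, 678, 654 and 637 counts per 1000 RN7SL1 counts in tDR libraries, against 665, 708, 734 and 733 in scramble libraries, with overlap.

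RN7SL5P had 89.5, 104, 60.1 and 69.3 counts per 1000 RN7SL1 counts in tDR libraries, against 47.0, 44.7, 59.5 and 55.8 in scramble libraries. tDR libraries 1 and 2 stood well above the rest, while tDR library 3 barely passed scramble library 3. RN7SL499P had 98.6, 105, 108 and 104 counts per 1000 RN7SL1 counts in tDR libraries, against 111, 108, 104 and 109 in scramble libraries, so it kept a nearly fixed ratio to RN7SL1 in all 8. RN7SL364P (62.4 to 75.5), RN7SL36P (61.3 to 70.5) and RN7SL147P (44.6 to 54.4) also varied little. RN7SL610P ran more widely, from 225 to 329, and RN7SL868P from 114 to 194. Of the 41 7SL rows with a mean count of at least 20, 5 were higher without overlap (RN7SL3, RN7SL396P, RN7SL563P, RN7SL5P and RN7SL732P) and 0 lower. Among 1461 features of any kind, 8.35% were higher and 0.205% lower by the same measure.

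**Figure D5:**
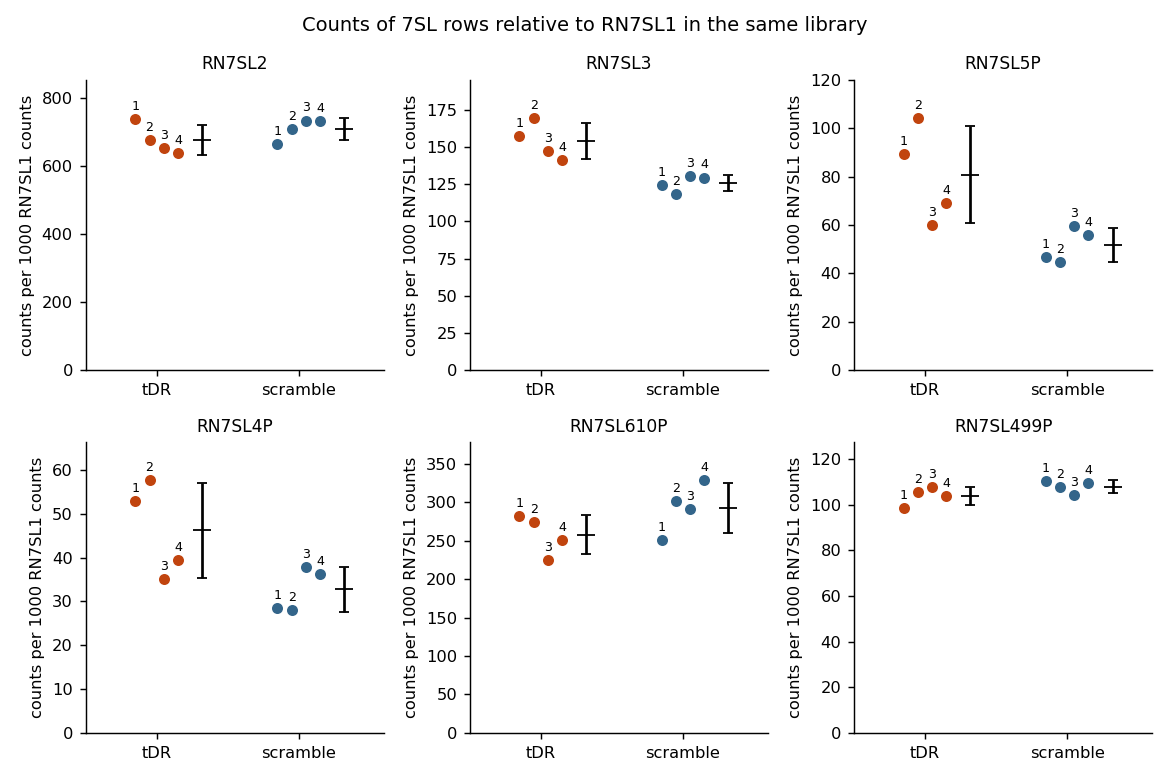
Counts per 1000 RN7SL1 counts of the same library (linear axes from 0), tDR libraries left and scramble libraries right in each panel; points are libraries with their replicate number, and bars are the mean ± SD of 4. RN7SL3 separates the groups (142 to 170 in tDR libraries, 119 to 130 in scramble libraries), RN7SL499P stays between 98.6 and 111, and RN7SL5P and RN7SL4P are highest in tDR libraries 1 and 2.

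The remaining copies named by size of change were not called. RN7SL296P had 7.09, 5.77, 5.29 and 4.05 CPM in tDR libraries, against 3.94, 1.52, 4.27 and 2.96 CPM in scramble libraries (log2 fold change 0.86, SE 0.32, adjusted p = 0.113, edgeR). RN7SL665P had 6.13, 14.2, 5.85 and 5.45 CPM in tDR libraries, against 4.45, 4.84, 5.62 and 3.75 CPM in scramble libraries (log2 fold change 0.77, SE 0.30, adjusted p = 0.141, edgeR). Both overlapped between groups. RN7SL494P had the lowest log2 fold change of the 55 rows at -0.44 (SE 0.35, adjusted p = 0.515, edgeR).

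The Metazoa_SRP rows, named for the RNA family model of 7SL, could not be placed in the genome. Metazoa_SRP.208 had 114, 120, 116 and 113 CPM in tDR libraries, against 117, 109, 115 and 94.6 CPM in scramble libraries, with overlap and a log2 fold change of 0.09 (SE 0.14, adjusted p = 0.812, edgeR). Metazoa_SRP.115 had 20, 11, 13 and 11 counts in tDR libraries, against 0, 4, 2 and 18 counts in scramble libraries. Scramble library 4 thus lay within the tDR range, and the log2 fold change was 1.54 (SE 0.59, adjusted p = 0.133, edgeR). Metazoa_SRP.121, whose counts equal those of Metazoa_SRP.197 and RN7SL627P, and Metazoa_SRP.112, Metazoa_SRP.126 and Metazoa_SRP.71 were not tested, with at most 12 counts in a library.

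The 71 rows that were not tested had a median of 4.12 counts per library, and the highest count was 20, in RN7SL116P. None was at 0 in all tDR libraries, and 2 were at 0 in all scramble libraries. None of them was called in the fit without the filter, and at this depth no difference could be read from them.

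Of the other genes of the pathway, none of the 8 listed SRP protein and receptor genes had a row in this small RNA table. Among 24 tested rows of RNAs related to 7SL or Alu sequence, BCYRN1 and the SNAR rows, 0 were called in either direction by edgeR, and the median log2 fold change was -0.19. Many SNAR rows had equal counts, and with these taken once 11 rows remained, with a median of -0.12. BCYRN1, a cytoplasmic RNA with an Alu-related 5′ part, averaged 5.16 ± 0.196 CPM in tDR libraries and 5.81 ± 0.321 CPM in scramble libraries (SD, n = 4 each; log2 fold change -0.18, adjusted p = 0.754, edgeR). Of 14 tested genes for other RNA polymerase III transcripts, 2 were called higher and 0 lower, with a median of -0.031. Over all features 5.34% were called higher and 1.36% lower. RNU6ATAC had the lowest log2 fold change of the 14, at -0.48 (adjusted p = 0.0662, edgeR). RMRP, the RNA of the mitochondrial RNA processing endonuclease, averaged 96.8 ± 9.32 CPM in tDR libraries and 63.1 ± 6.80 CPM in scramble libraries (log2 fold change 0.62, adjusted p = 0.0119, edgeR). RNY4, a Y RNA, averaged 822 ± 60.9 CPM in tDR libraries and 485 ± 44.9 CPM in scramble libraries (log2 fold change 0.76, adjusted p = 0.0028, edgeR).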

How the data were processed

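Small RNA was measured in 4 tDR and 4 scramble libraries, grouped and numbered by the labels. The authors deposited raw counts per feature and a normalized signal; over the 7SL rows that signal is the count divided by 1 factor per library. Per the submitters' processing notes the genome was hg38; no aligner, counter or annotation is named in the sources used here. The raw file holds 2964 rows, of which 2 name no gene and were removed before library sizes were summed; 0 columns belonged to other samples. Nothing in the labels ties the replicates to separate cultures; p-values then reflect only how these libraries scatter, which may be technical. Chi-square per degree of freedom was 13.2 or more in all 12 replicate pairs, and no library was counted as a copy.

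The whole table, filtered by group with filterByExpr and scaled with TMM factors, was fitted by robust quasi-likelihood in edgeR 4.0.16 (R 4.3.3) with an F test, no covariates, Benjamini-Hochberg adjustment over 1761 features, threshold 0.05. SE was taken from the F value, as the absolute log2 fold change over its square root. CPM are TMM-scaled, except for scr2 and the microRNA lists, which are per total count. Alternatives used DESeq2 1.42.0, limma 3.58.1 on log2 of the deposited signal plus 1, other scalings and filters, and each library left out. Sequences were taken from GENCODE release 29 transcripts for 123 of 131 rows and aligned to RN7SL1 with Biopython 1.88. The sequences themselves are not reported here.

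The members and lists were chosen with earlier results of these data known. Named rows are the 3 genes, called rows, the 6 most abundant copies and Metazoa_SRP rows, and the 4 largest rises and falls with a mean count of at least 20.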

Additional observations from a re-analysis of the deposited data

Results flagged for a closer look

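Among 42 groups of 4 libraries examined, 9 had 1 library far from the other 3; chance alone gives about 1 in 20 groups, and rows that share reads are not separate cases. Scramble library 1 was the far one in 6 of them: RN7SL1 at 1775 CPM (the other scramble libraries 1059 to 1176), RN7SL2 at 1180 CPM (777 to 832), RN7SL3 at 221 CPM (137 to 146), RN7SL499P at 196 CPM (116 to 127), RN7SL364P at 122 CPM (75.0 to 79.9) and RN7SL36P at 112 CPM (72.5 to 74.7). That library's total of 8235808 counts lies within the range of the other scramble libraries.

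tDR library 1 stood apart for RN7SL242P, at 4.23 CPM against 2.49 to 2.51 CPM in the other tDR libraries. tDR library 2 stood apart for RN7SL5P, at 113 CPM against 78.8 to 83.4 CPM, and for RN7SL665P, at 14.2 CPM against 5.45 to 6.13 CPM.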

How the results depend on the processing

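Against 4 rows called higher, the count was 0 with total counts (all features 54 of 1761), 11 with TMM on microRNAs alone (157 of 1761), 1 of 24 rows tested with a mean count of at least 50 (77 of 1110), 8 with limma on the deposited signal (145 of 1761), and 0 to 3 with 1 library left out. Against 0 called lower, it was 2 with DESeq2 size factors (all features 39), 2 with the DESeq2 Wald test (61), 2 with a mean count of at least 50 (46), 1 with total counts (39), and 0 with any library left out. The median log2 fold change of 7SL rows was 0.62 with TMM on microRNAs alone and 0.066 at the mean count of 50, and 0.20 to 0.46 with 1 library left out. Total counts moved the median of all features to -0.13 and TMM on microRNAs moved it to 0.36. The 7SL median lay 0.29 and 0.26 above these, against 0.29 as reported. A change of scaling moves all rows nearly alike, so these 7SL offsets could hardly change and show no robustness. At the mean count of 50 the offset was 0.091. The median of the 42 7SL rows at the filter cutoff in all 8 libraries was 0.11 as reported. RN7SL1 ran from -0.28 to 0.019 with 1 library left out and was 0.16 with microRNA TMM; RN7SL2 ran from -0.33 to -0.091 and was 0.096; RN7SL3 ran from 0.025 to 0.30 and was -0.032 with total counts. With microRNA TMM RN7SL499P was 0.11, RN7SL364P 0.094 and RN7SL36P 0.14, and with total counts Metazoa_SRP.208 was -0.055. The difference in 7SL share was -0.0716 percentage points with every row summed, -0.159 with nearly equal rows taken once, -0.046 for the largest row alone and -0.147 to -0.0894 with 1 library left out; the copy-to-gene ratio differed by -0.035 for the largest copy alone and by 0.0204 to 0.076 with 1 library left out. The cause of these shifts was not tested.

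With the replicate number as a block, 0 rows were called higher (all features 38) and 0 lower (1). Same-numbered libraries deviated with correlations of -0.36 to -0.12, and 0 of 4 tDR libraries correlated best with its own number. These correlations cannot show whether same-numbered libraries shared a culture or preparation, since deviations within a group of 4 constrain each other. The 71 rows below the filter on low counts were tested only in the fit without it. There 3 of 126 rows were called higher and 0 lower (all features 101 and 30 of 2760). The median log2 fold change was 0.25 (all features 0.027).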

Other observations

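Of the 50 tested numbered copies, 29 lie inside a protein-coding gene, 19 of them on its strand, and 1 overlaps an exon. The median log2 fold change was 0.13 for the 19 copies on the strand of their host gene, 0.30 for the 10 on the opposite strand only, and 0.52 for the 21 outside protein-coding genes. Their ranges overlap, at -0.44 to 1.49, -0.35 to 0.60 and -0.43 to 1.40. The split was made after values were seen and was not tested.

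GENCODE annotates 680 RN7SL genes and copies, of which 557 had no row. The copies that were not tested resembled the tested ones in identity to RN7SL1 (median 81.6%, against 82.8%), while their longest shared run had a median of 27 bases and reached 51, against a median of 34 and a longest of 209 among tested copies.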
